A study of Mus musculus with 12 samples.

Results

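The genes described are the subunits of the glutamate and GABA receptors, taken by gene symbol: the AMPA subunits Gria1 to Gria4, the kainate subunits Grik1 to Grik5, the NMDA subunits beginning with Grin1, Grin2 and Grin3, the metabotropic glutamate receptors beginning with Grm, the GABA-A subunits beginning with Gabra, Gabrb, Gabrg, Gabrd, Gabre and Gabrr, and the GABA-B subunits Gabbr1 and Gabbr2. The rule found 43 genes among the 34102 in the table, namely 4 AMPA, 5 kainate, 7 NMDA, 8 metabotropic glutamate, 17 GABA-A and 2 GABA-B genes. They were measured by RNA-seq of total RNA in 12 mouse libraries, 3 in each of 4 groups, all from the C57BL/6 strain. Cortex labelled cKO came from Srsf10 flox/flox mice that carry Nestin-Cre, a recombinase driven by the Nestin promoter in neural progenitors and their progeny, and control cortex came from Srsf10 flox/flox mice without the recombinase. Both cortex groups carry the floxed Srsf10 gene. No group carried Nestin-Cre alone, so effects of the transgene and of Srsf10 loss cannot be told apart. The cultured groups were primary neural progenitor cells (NPC) from cortex, labelled SRSF10 knockdown or labelled WT for the controls, grown in suspension with bFGF, EGF, heparin and B27. The knockdown used a lentivirus at a multiplicity of infection of 30, and RNA was taken 72 h after infection; the labels do not say which virus, if any, the control NPC received. The labels give no age for the animals.

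Glutamate is the main excitatory transmitter of the cortex and GABA the main inhibitory one. AMPA, kainate and NMDA receptors are glutamate-gated cation channels built from 4 subunits each, and GABA-A receptors are chloride channels built from several subunit families. Metabotropic glutamate receptors and GABA-B receptors act through G proteins. In the developing cortex the subunit mix is known to shift with neuronal maturation, and progenitors and glia also carry some of these receptors. The product of Srsf10 belongs to the SR proteins, which act in pre-mRNA splicing.

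Each library held between 26074094 and 36713205 counts over genes, and the lowest cortex library (32560159) lay above the highest NPC library (30608918). Srsf10 itself measured 223, 190 and 226 counts per 1000000 (CPM) in the libraries labelled cKO, against 195, 219 and 201 CPM in control cortex. The difference was 0.03 on the log2 scale (95% interval -0.15 to 0.21, edgeR adjusted p = 0.917). In NPC, Srsf10 measured 239, 222 and 217 CPM in the libraries labelled knockdown, against 246, 228 and 222 CPM in control NPC, a log2 difference of -0.05 (95% interval -0.21 to 0.12, edgeR adjusted p = 0.774). The whole-gene count of the targeted gene therefore did not separate either pair of groups, and directions below are those of libraries labelled cKO and labelled knockdown. Summed levels of 12 neuronal marker genes were 10970 to 11220 CPM in cortex labelled cKO and 11050 to 11200 CPM in control cortex, with no marker at 0. In NPC, 10 progenitor and radial glia markers summed to 10470 to 12250 CPM in the libraries labelled knockdown and 10680 to 10980 CPM in control NPC, again with none at 0. The 12 neuronal markers summed to 1598 to 2202 CPM in the NPC libraries labelled knockdown and 1471 to 1705 CPM in control NPC. Most of that sum came from Map2 (1168 CPM on average with the knockdown label and 1046 CPM in controls) and Gap43 (654 CPM and 448 CPM), while Tubb3 averaged 10.4 CPM with the knockdown label and 12.5 CPM in controls, and Dcx 8.62 CPM and 9.62 CPM. A choroid plexus transcript, Ttr, was above 1000 CPM in 2 cortex libraries, replicate 3 labelled cKO and control replicate 2. Nothing in the labels says that libraries came from separate animals or cultures, so p-values measure the spread between these libraries, which may be technical. Scored by the level of the gene Ddx3y (male above 10 CPM), the cortex libraries included both sexes, so they did not all come from a single animal.

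A subunit was counted as expressed in a system when all 3 libraries of at least 1 of its groups reached 1 CPM. By that rule 35 of the 43 genes were expressed in cortex and 25 in NPC. Of these, 24 were expressed in both systems, 11 in cortex and not NPC, 1 in NPC and not cortex, and 7 in neither. The 11 cortex genes included Grin2c, Grin2d, Grm2, Grm7, Grm8, Gabra4, Gabra5, Gabrb1 and Gabrd. The single NPC gene was Grm4, a metabotropic receptor. The 7 genes below the level in both systems were Grin3b, Grm6, Gabra6, Gabre and the 3 rho subunits Gabrr1, Gabrr2 and Gabrr3. All 4 AMPA, all 5 kainate and both GABA-B genes were expressed in both systems, as were 4 of 7 NMDA, 3 of 8 metabotropic and 6 of 17 GABA-A genes. Grik1, Gabra3, Gabrb2 and Gabbr2 met the rule in NPC only through the libraries labelled knockdown. Their lowest control NPC libraries held 0.911, 0.652, 0.945 and 0.945 CPM, in that order. In NPC, 6 genes had no more than 3 counts in any library, and a further 12 were detected below the level.

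**Figure D1:**
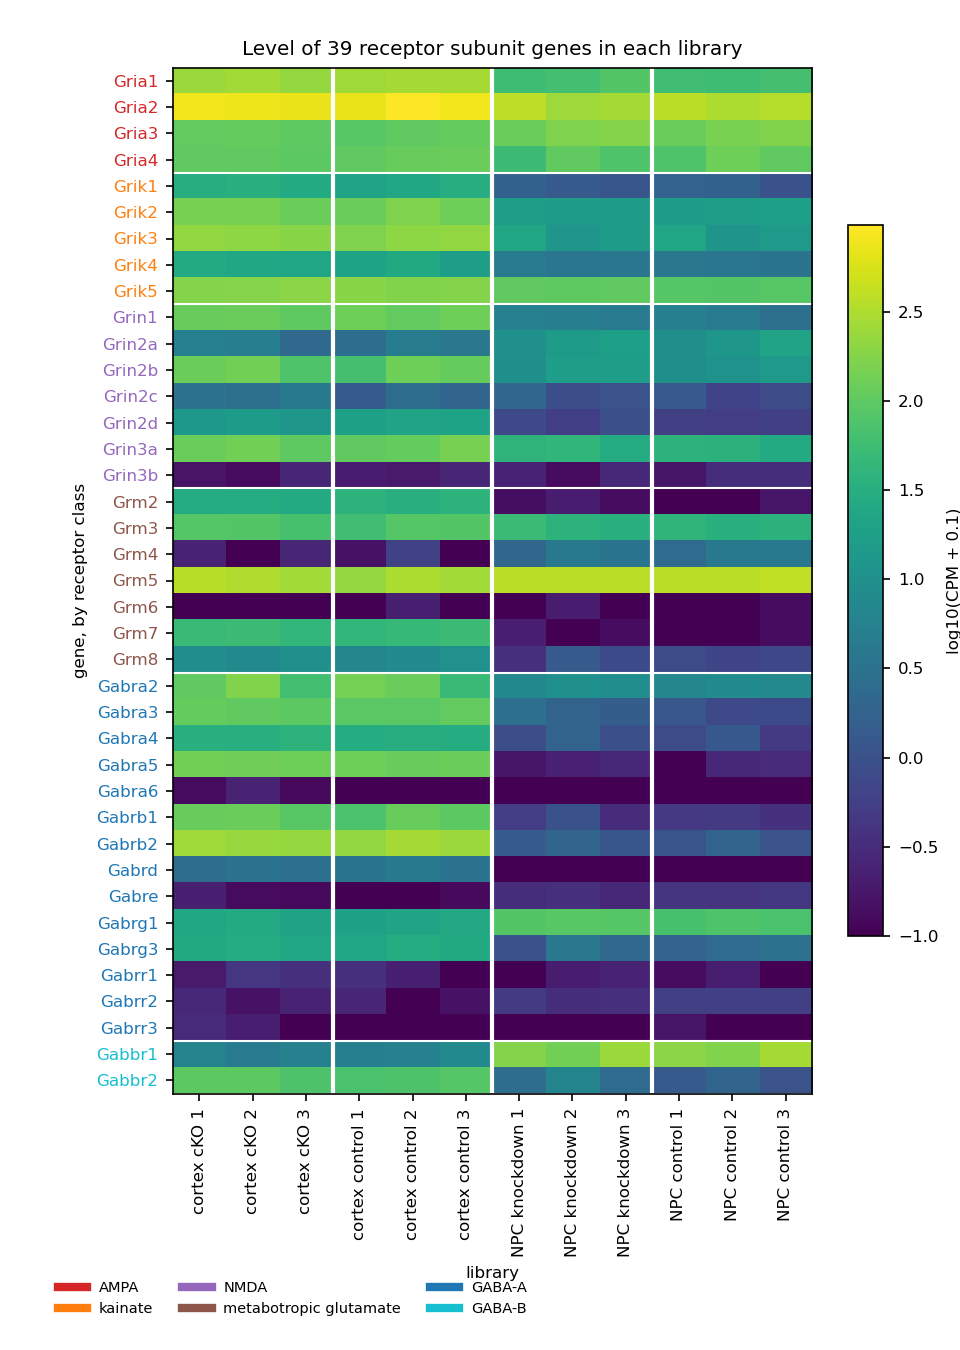
Level of 39 subunit genes (rows, grouped by receptor class) in each of the 12 libraries (columns, 3 per group), coloured by log10(CPM + 0.1). The GABA-A rows show the broadest difference between cortex and NPC columns, and Gabbr1 and Gabbr2 run in opposite directions between the systems.

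Levels of different genes are compared per length, as CPM per 1000 bases of merged exons (RPKM). Among the AMPA genes, Gria2, the subunit that makes the channel nearly impermeable to calcium, was highest in every group. It reached 804, 767 and 741 CPM in cortex labelled cKO and 712, 972 and 792 CPM in control cortex. In NPC it reached 384, 251 and 283 CPM in the libraries labelled knockdown and 373, 310 and 346 CPM in controls. Per length this was 49.6 ± 2.05 RPKM in cortex labelled cKO and 53.1 ± 8.57 RPKM in control cortex, and 19.7 ± 4.46 RPKM in NPC labelled knockdown and 22.1 ± 2.01 RPKM in control NPC (SD, n = 3 each). Gria1 held the next place in cortex, at 41.3 ± 4.32 RPKM in the libraries labelled cKO and 46.1 ± 1.83 RPKM in controls. In NPC Gria1 was the lowest of the 4, at 11.2 ± 2.41 RPKM with the knockdown label and 9.76 ± 0.694 RPKM in controls. Gria3 and Gria4 differed least between the systems: Gria4 stood at 17.8 ± 1.36 RPKM in control cortex and 16.3 ± 3.96 RPKM in control NPC, and Gria3 at 10.3 ± 1.05 RPKM in control cortex and 15.3 ± 2.46 RPKM in control NPC.

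Grik5, which encodes a kainate subunit that forms channels only together with another kainate subunit, led its class. It measured 178, 184 and 195 CPM in cortex labelled cKO and 193, 169 and 178 CPM in control cortex. In NPC it measured 105, 101 and 103 CPM with the knockdown label and 84.8, 84.6 and 90.5 CPM in controls. Grik5 made up 46.2% of the summed kainate RPKM in cortex labelled cKO and 46.9% in control cortex, but 83.7% in NPC labelled knockdown and 81.3% in control NPC. The subunits able to form channels alone, Grik1, Grik2 and Grik3, were lower in the cultures: Grik3 averaged 21.9 ± 2.95 RPKM in control cortex and 1.77 ± 0.586 RPKM in control NPC, and Grik2 averaged 10.3 ± 1.81 RPKM in control cortex and 1.29 ± 0.0762 RPKM in control NPC. Grik1 and Grik4 were below 5 RPKM in every group.

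Of the NMDA genes, Grin1 encodes the subunit that NMDA receptors require. It reached 113, 119 and 100 CPM in cortex labelled cKO and 127, 106 and 127 CPM in control cortex. In NPC it reached 5.56, 4.97 and 4.21 CPM with the knockdown label and 5.20, 4.37 and 2.90 CPM in controls. Grin1 was first of its class in cortex, with 40.0% of the NMDA RPKM in libraries labelled cKO and 41.7% in controls. In NPC the first place went to Grin3a, a modulatory subunit, with 56.5% of a much smaller sum in libraries labelled knockdown and 58.2% in controls. The NMDA sum was 28.7 ± 4.04 RPKM in cortex labelled cKO and 29.9 ± 2.95 RPKM in control cortex, against 5.27 ± 0.454 RPKM in NPC labelled knockdown and 4.75 ± 0.187 RPKM in control NPC. Grin2b and Grin2a encode the subunits known to dominate the immature and the mature forebrain. Their RPKM ratio, Grin2b over Grin2a, was 20.8 ± 4.25 in cortex labelled cKO and 19.3 ± 1.78 in control cortex, but 0.738 ± 0.0743 in NPC labelled knockdown and 0.612 ± 0.124 in control NPC (SD, n = 3 each). The NPC ratios compare low levels: Grin2b averaged 0.591 RPKM with the knockdown label and 0.463 RPKM in controls, and Grin2a 0.799 and 0.801 RPKM. In cortex Grin2a averaged 0.233 RPKM with the cKO label and 0.211 RPKM in controls. The 50-base words of the Grin2a transcripts are 11.6% shared with the gene model Gm7328, which stayed below 1 CPM in every library, and the labels do not say how such reads were assigned. Grin1 shares 13.5% of its exon bases with the antisense gene Grin1os, Grin2d shares 9.66% with the antisense gene Gm45441, and Grin3b shares 32.1% with Tmem259. Whether counting used the strand is not stated, so levels of these genes carry that uncertainty.

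The metabotropic receptors divided sharply. Grm5, which couples to phospholipase C, was abundant in both tissue and progenitor cultures: 359, 321 and 275 CPM in cortex labelled cKO, 224, 309 and 269 CPM in control cortex, 379, 379 and 376 CPM in NPC labelled knockdown, and 382, 370 and 400 CPM in control NPC. It supplied 72.0% of the metabotropic RPKM in NPC labelled knockdown and 74.4% in control NPC, with nearly all of the remainder from Grm3, which inhibits adenylyl cyclase. Grm4 was detected mainly in the cultures, with 52, 123 and 92 counts in libraries labelled knockdown and 66, 106 and 118 counts in control NPC, against 5, 0 and 6 counts in cortex labelled cKO and 2, 16 and 0 counts in control cortex. Grm7 and Grm2, both known as presynaptic receptors, went the other way. Grm7 had 5135 counts summed over control cortex and 1 count over control NPC, and Grm2 had 3799 over control cortex and 2 over control NPC. Grm8 and Grm6 were below 1 RPKM in every group, and Grm6, known from retinal bipolar cells, had at most 4 counts over the 3 libraries of a group.

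Promoter windows from RefSeq (build GRCm38.p6, from 250 bases before to 50 after the gene start) were found for 30 of the 43 genes. Grm2 and Gria2 are shown because both carry letters of the RE1 element, the binding site of the repressor REST. In NPC, Grm2 was near absent and Gria2 abundant, and any part of REST in these levels was not tested. The Grm2 stretch lies at chr9:106656325-106656354 (minus strand, the strand of the gene), 216 to 245 bases before the RefSeq start. The Grm2 coordinates given further below are from GENCODE, which places the start of this gene elsewhere. The Gria2 stretch lies at chr3:80802986-80803015 (plus strand, opposite to the gene), 151 to 180 bases before the start. Capitals mark the letters searched. The first word differs by a letter between the stretches, and the gap between the words is longer in Grm2.
Grm2: ggaTTCAGCACCacactgtGGACAGCtcca
Gria2: gatTTTAGCACCgcGGACAGCgctttggtc
On either strand, TTCAGCACC occurred in 122 of 32851 promoter windows (0.371%), and among the 30 subunit genes with a window in Grm2 alone. TTTAGCACC occurred in 49 windows (0.149%), among those 30 genes in Gria2 alone, and GGACAGC in 2155 (6.56%), among those 30 in Gria2 and Grm2. Because Grm2 and Gria2 were shown for these matches, the counts of windows are no test of either gene. The matches describe letters and say nothing of binding.

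Of the 6 classes, the GABA-A genes differed most in summed RPKM between tissue and culture. Their summed level was 228 ± 17.6 RPKM in cortex labelled cKO and 222 ± 7.55 RPKM in control cortex, against 19.2 ± 2.29 RPKM in NPC labelled knockdown and 18.8 ± 1.998 RPKM in control NPC. In cortex the sum was spread over many subunits. Gabra5, whose product is found largely at extrasynaptic sites, stood at 44.2 ± 1.79 RPKM with the cKO label and 41.2 ± 2.12 RPKM in controls. Gabrb2, a beta subunit, stood at 38.0 ± 2.80 RPKM with the cKO label and 39.0 ± 5.04 RPKM in controls. In NPC Gabrg1, a gamma subunit, gave 57.3% of the sum in libraries labelled knockdown and 48.2% in controls. The most abundant alpha subunit in NPC was Gabra2, at 1.14 ± 0.190 RPKM with the knockdown label and 0.986 ± 0.0769 RPKM in controls.

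GABA-A genes lie in clusters in the mouse genome (mm10). In the chromosome 11 cluster, Gabrb2 reached 38.0 RPKM in cortex labelled cKO and 39.0 RPKM in control cortex, against 0.225 RPKM in NPC labelled knockdown and 0.198 RPKM in control NPC. Its low level in the libraries labelled knockdown still met the rule of 1 CPM. Gabra6, in the same cluster, had no count in either NPC group. In the chromosome 5 cluster, Gabrg1 reached 10.9 RPKM in NPC labelled knockdown and 9.04 RPKM in control NPC, above its 3.005 RPKM in cortex labelled cKO and 2.80 RPKM in control cortex. Its neighbours Gabra2, Gabra4 and Gabrb1 were all higher in cortex than in NPC. In the chromosome 7 cluster, Gabra5 and Gabrg3 were at or below 0.201 RPKM in both NPC groups. Gabra4 and Gabrb1 overlap head to head and share 46 exon bases on opposite strands, under 1% of the exons of either.

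The GABA-B pair was split between the systems. A functional GABA-B receptor is a dimer of GABBR1, which binds GABA, and GABBR2, which couples to the G protein. Gabbr1 measured 6.07, 4.54 and 5.48 CPM in cortex labelled cKO and 5.20, 5.56 and 7.87 CPM in control cortex, but 180, 138 and 247 CPM in NPC labelled knockdown and 199, 168 and 285 CPM in control NPC. Gabbr2 measured 94.5, 96.0 and 74.0 CPM in cortex labelled cKO and 69.3, 76.0 and 85.5 CPM in control cortex, against 2.57, 6.17 and 2.40 CPM in NPC labelled knockdown and 1.24, 1.80 and 0.945 CPM in control NPC. Each system thus held mostly one partner: Gabbr2 was 94.95% of the pair's RPKM in cortex labelled cKO and 93.6% in control cortex, and Gabbr1 was 97.4% in NPC labelled knockdown and 99.2% in control NPC. Gabbr1 shares no exon base with another annotated gene, and 0.025% of its 50-base words occur elsewhere in annotated transcripts. Whether reads of Gabbr1 were counted alike in tissue and culture was not tested.

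**Figure D2:**
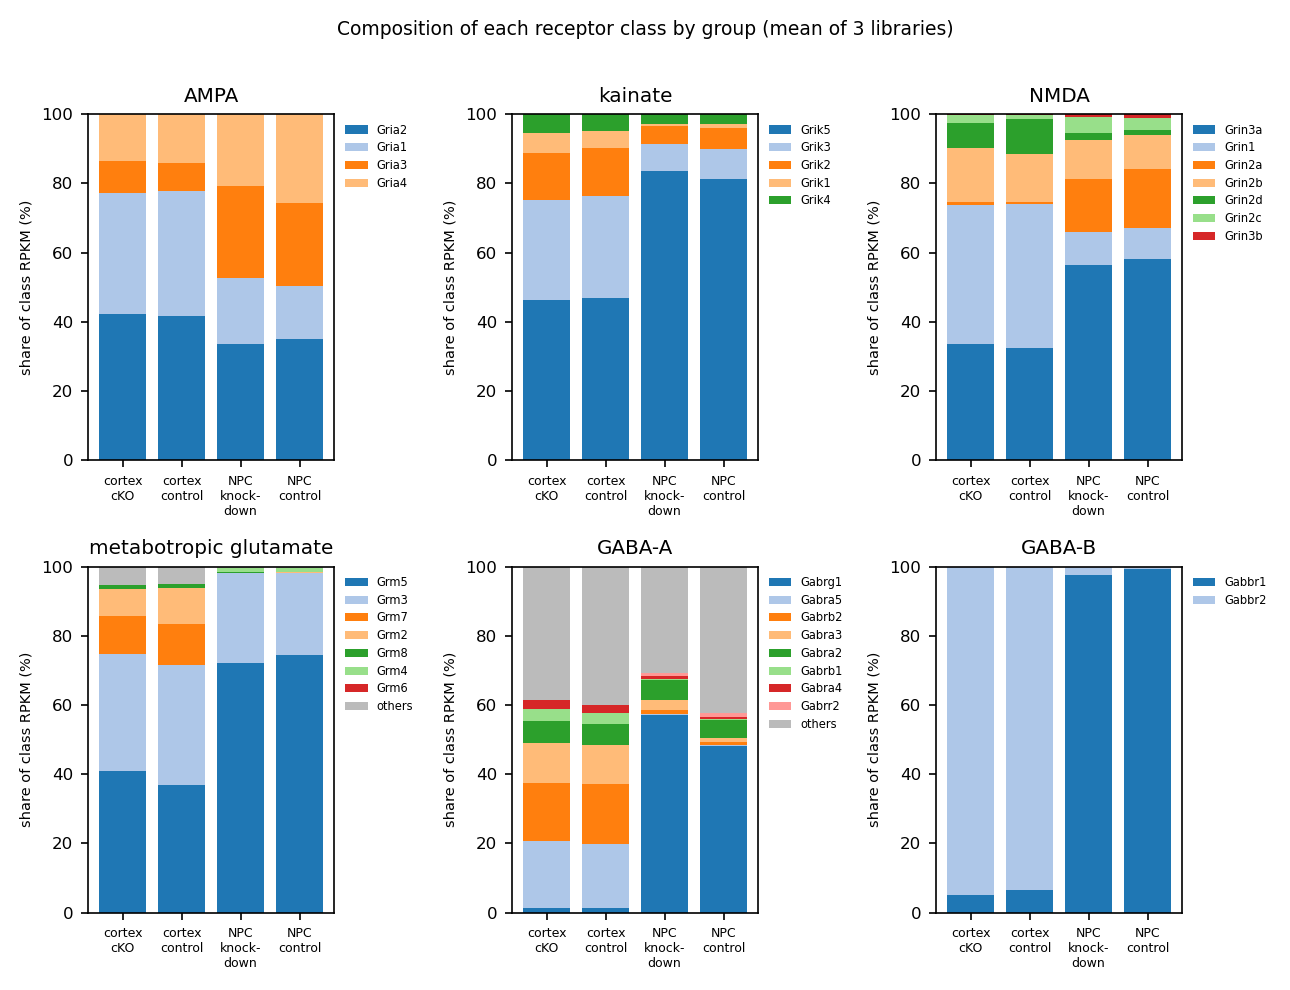
Share of each receptor class's summed RPKM (%) taken by the named genes and by the others together, as the mean of 3 libraries in cortex labelled cKO, control cortex, NPC labelled knockdown and control NPC. The 2 cortex bars resemble each other in every class, and in NPC single genes dominate the kainate (Grik5, 83.7% and 81.3%), metabotropic (Grm5, 72.0% and 74.4%) and GABA-B (Gabbr1, 97.4% and 99.2%) classes.

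Control cortex was set against control NPC to test these contrasts between tissue and culture. In this comparison 78.9% of the 15676 genes tested passed an adjusted p of 0.05 by edgeR's quasi-likelihood test, so a call is the usual outcome. Of the 43 subunit genes, 37 were tested. The filter on low counts admitted 7 of the 37 through cortex alone (Grm2, Grm7, Gabra5, Gabrb1 and Gabrd among them) and 2 through NPC alone (Grm4 and Gabrr2), and these had to differ, so they are described without a test. Of the 28 that passed the filter in both groups, 27 were called, 22 higher and 5 lower in cortex, beside 40.5% and 38.4% of all genes tested. The groups did not overlap for 27 of the 28, beside 81.6% of all genes tested. The exception was Gria4, with 102, 117 and 118 CPM in control cortex and 76.9, 127 and 105 CPM in control NPC, a log2 difference of 0.10 (95% interval -0.24 to 0.45, edgeR adjusted p = 0.547). The median log2 difference was 2.84 over the 28 subunit genes and 0.03 over all genes tested. The set of all genes tested includes genes admitted through 1 group alone, which the 28 leave out, so the 2 sets are unlike.

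Among the largest excesses in cortex were those of Grm7, Grm2, Gabra5 and Gabrd, all admitted through cortex alone. By summed counts scaled to library size, Grm7 was 4075 times higher in control cortex (exact 95% counting interval 731 to 161000) and Grm2 1507 times higher (417 to 12450). These intervals rest on 1 and 2 NPC counts and cover counting error alone, not the spread between libraries. Because both genes were admitted through cortex alone, the intervals are no test of a difference. Gabrd, the delta subunit of tonic GABA-A receptors, had 370 counts in control cortex and 0 in control NPC, at least 97.9-fold higher in cortex against a floor of 3 counts over the group. Gabra5 measured 129, 116 and 123 CPM in control cortex and 0, 0.192 and 0.202 CPM in control NPC.

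The 5 genes called lower in cortex were Gabbr1, Grin2a, Gabrg1, Gria3 and Grm5, and Grm4 and Gabrr2, admitted through NPC alone, were also lower there. Gabbr1 differed by -5.15 on the log2 scale (SE 0.24, edgeR adjusted p = 5.24e-08), with every control cortex library below 8 CPM and every control NPC library above 160 CPM. For Grm4, control cortex replicate 2 alone held 16 of its 18 control cortex counts. Grin2a measured 2.68, 4.88 and 3.81 CPM in control cortex and 9.38, 12.8 and 20.8 CPM in control NPC, a log2 difference of -1.95 (SE 0.32, edgeR adjusted p = 0.000345). Gabrg1 measured 19.2, 21.4 and 25.6 CPM in control cortex and 67.1, 76.9 and 69.3 CPM in control NPC, a difference of -1.71 (SE 0.12, edgeR adjusted p = 8.26e-07). Gria3 measured 90.8, 102 and 111 CPM in control cortex and 125, 153 and 173 CPM in control NPC, a difference of -0.59 (SE 0.12, edgeR adjusted p = 0.0016). The difference for Grm5 was -0.55 (SE 0.11, edgeR adjusted p = 0.00142). In bulk RNA, fewer cells of a type and less RNA per cell cannot be told apart, which bears on each of these differences.

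**Figure D3:**
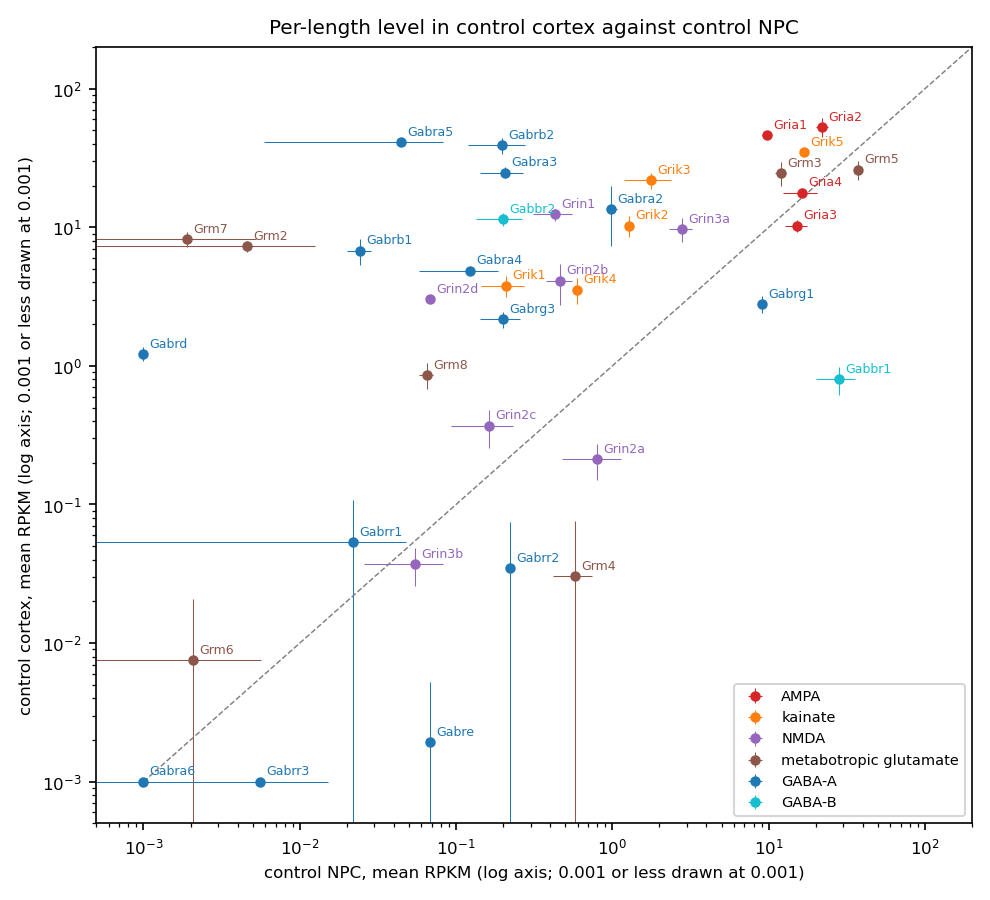
Mean RPKM of 39 subunit genes in control cortex (vertical, log axis) against control NPC (horizontal, log axis), with bars of 1 SD over 3 libraries and a dashed line of equal level. Gabbr1, Grm4, Gabrg1 and Grin2a lie below the line, Gria4 lies on it, and Grm7, Grm2 and Gabra5 lie far above it.

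The next comparison asked which subunit genes differed in cortex labelled cKO from control cortex. No subunit gene passed: of the 15781 genes tested, 27 did (0.171%), and of the 35 subunit genes tested, 0. At an unadjusted p under 0.05 there were 5 subunit genes, beside 10.9% of all genes tested, and DESeq2 called 2 of the 35, beside 2.1% of all genes. Fitted log2 changes were positive for 22 and negative for 13 genes and spanned -0.56 to 0.84, with a median of 0.03 against 0.003 for all genes tested. The groups did not overlap for 5 of the 35 genes, 2 higher (Grin2c and Gabra4) and 3 lower (Grin2d and Grm2 among them), beside 17.6% of all genes tested.

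The genes below were named after their values were seen. Grin2d encodes an NMDA subunit known from interneurons and from early development (chromosome 7, 45831883 to 45878378). It measured 13.2, 15.5 and 12.8 CPM in cortex labelled cKO and 19.2, 20.9 and 20.2 CPM in control cortex, so every library with the cKO label lay below every control. The log2 difference was -0.56 (SE 0.11, 95% interval -0.81 to -0.31) and missed the threshold in edgeR (adjusted p = 0.0889), while DESeq2 placed it past the threshold (adjusted p = 0.00242), as did edgeR with no filter on low counts (adjusted p = 0.0398). Grm2 (chromosome 9, 106643095 to 106656082) measured 27.9, 29.6 and 26.9 CPM in cortex labelled cKO and 37.3, 32.2 and 37.7 CPM in control cortex. Its log2 difference was -0.37 (SE 0.10, 95% interval -0.58 to -0.16, edgeR adjusted p = 0.175), and DESeq2 gave an adjusted p of 0.0369. Other edgeR settings called neither gene. For Grin2d the adjusted p was 0.272 with the replicate block, 0.203 with sex as a covariate and 0.149 in one fit of 12 libraries. For Grm2 these were 0.456, 0.267 and 0.406. With sex as a covariate the differences were -0.58 for Grin2d and -0.40 for Grm2. Leaving out each library in turn kept the Grin2d difference between -0.65 and -0.51 and that of Grm2 between -0.44 and -0.33, none past the edgeR threshold. Without the 2 libraries high in Ttr, 22 genes and 0 subunit genes passed, and the differences were -0.48 for Grin2d and -0.41 for Grm2. Gm28111, the antisense gene that shares 9.60% of the exon bases of Grm2, had 0 counts in every library.

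Grin2c, an NMDA subunit best known from cerebellum, had the largest positive difference. It measured 3.23, 2.83 and 4.05 CPM in cortex labelled cKO and 1.31, 2.46 and 1.82 CPM in control cortex, a log2 difference of 0.84 (SE 0.29, edgeR adjusted p = 0.314). With sex as a covariate the Grin2c difference was 1.03 (SE 0.28, edgeR adjusted p = 0.286). Gria1 and Gria4 each had a difference of -0.18, with overlapping libraries and edgeR adjusted p of 0.443 and 0.399. Some marker sums moved between the same groups. The 12 interneuron and ventral forebrain markers summed to 462 to 495 CPM in cortex labelled cKO and 558 to 602 CPM in control cortex, with 10 of the 12 fitted lower and 0 called. The 8 oligodendrocyte lineage markers summed to 278 to 284 CPM in cortex labelled cKO and 316 to 333 CPM in control cortex, with 7 of 8 fitted lower and 1 called. The 7 astrocyte markers summed to 597 to 667 CPM in cortex labelled cKO and 515 to 524 CPM in control cortex, with 5 of 7 fitted higher and 0 called. No marker of these lists was at 0 in cortex. Their part in the Grin2d, Grm2 and Grin2c values was not tested.

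Library spread limited the cortex comparison for some subunits. Gabra2 was the most variable expressed subunit gene in both cortex groups, with 102, 173 and 61.3 CPM in the libraries labelled cKO and 143, 118 and 50.8 CPM in controls. Its coefficient of variation was 50.3% in the libraries labelled cKO and 45.8% in controls, where the medians over the 35 expressed subunit genes were 10.6% with the cKO label and 12.8% in controls. The 95% interval for its log2 change ran from -0.77 to 0.93. Grin2b measured 125, 139 and 77.01 CPM with the cKO label and 65.2, 130 and 111 CPM in controls. Grin2a measured 5.40, 4.92 and 2.20 CPM with the cKO label and 2.68, 4.88 and 3.81 CPM in controls. Both were lowest in the same libraries, replicate 3 labelled cKO and control replicate 1. By contrast the libraries of Gabra5 varied by 4.04% with the cKO label and 5.14% in controls.

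**Figure D4:**
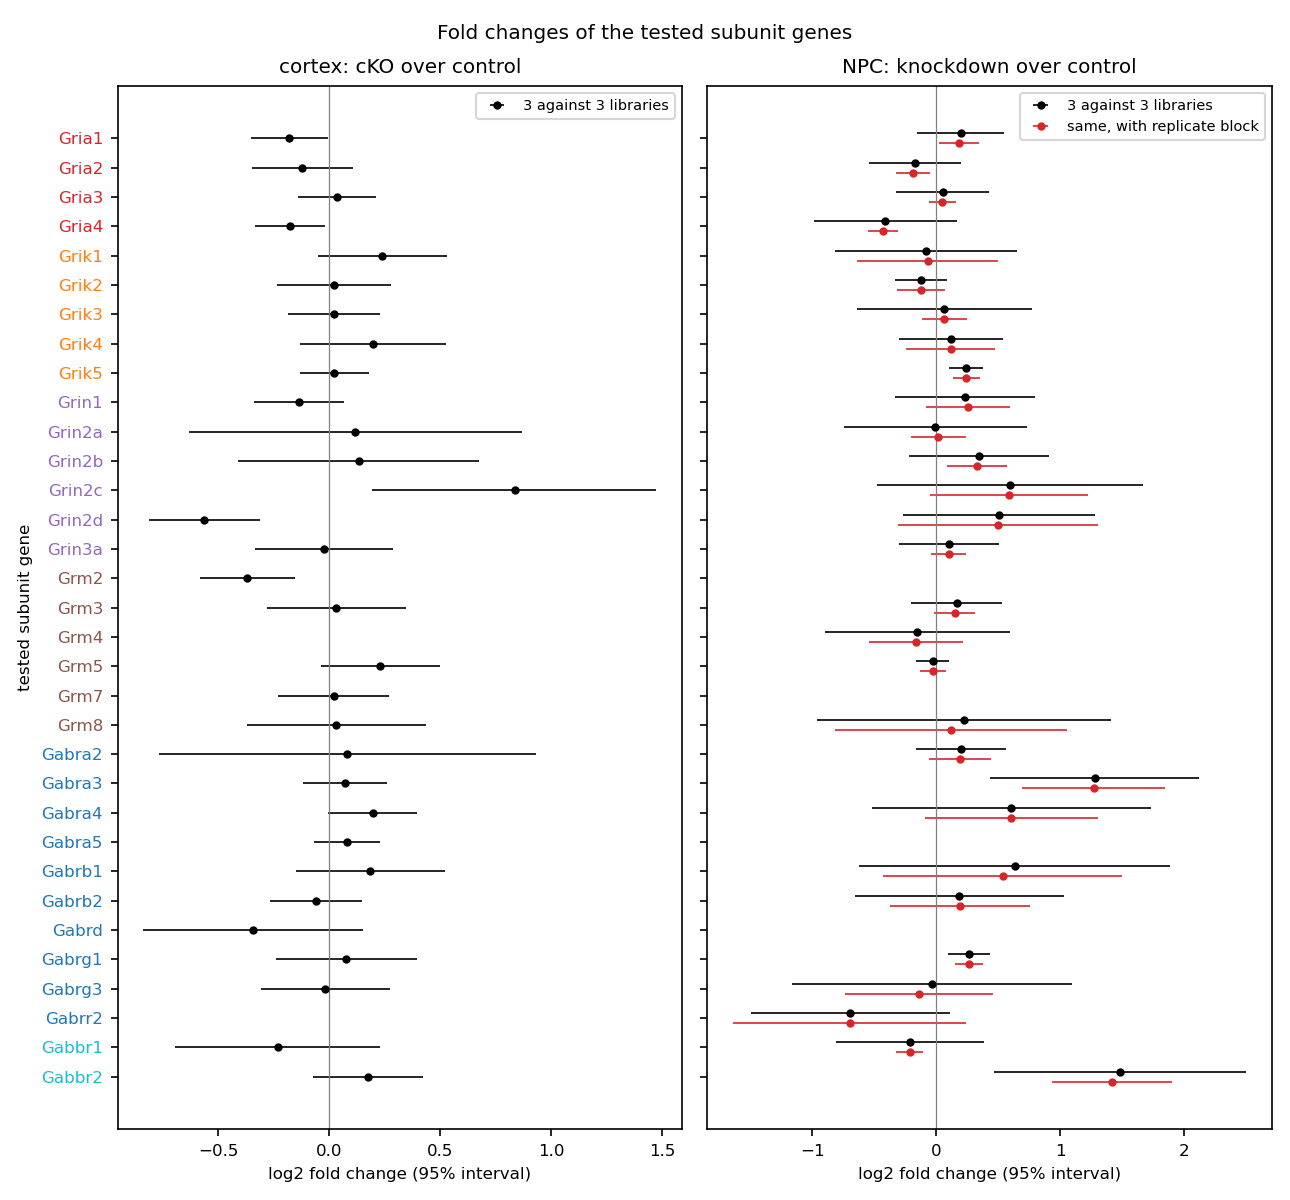
Log2 fold change with its 95% interval for the tested subunit genes drawn, for cKO over control in cortex (left) and knockdown over control in NPC (right, black without and red with the replicate number as a block). In cortex the intervals of Grin2d (-0.81 to -0.31), Grm2 (-0.58 to -0.16), Gria1 (-0.35 to -0.0053) and Gria4 (-0.33 to -0.019) lie below 0. That of Grin2c (0.20 to 1.475) lies above 0. The intervals are not adjusted for the number of genes tested, and no subunit gene passed in cortex. In NPC the red intervals are mostly shorter than the black ones.

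In NPC the comparison was between libraries labelled knockdown and control NPC. Compared as 3 against 3 libraries, 270 of 14258 genes passed (1.89%) and 0 of the 31 subunit genes tested did. At an unadjusted p under 0.05 there were 4, beside 18.3% of all genes. Libraries with the same replicate number deviated together in NPC, and with that number as a block 3522 genes passed (24.7%) and 9 of the 31 subunit genes (29.0%), 5 higher and 4 lower. Whether the subunit share differed from that of all genes was not tested. The genes higher in libraries labelled knockdown were Gabbr2, Gabra3, Gabrg1, Grik5 and Grin2b, and the lower ones included Gria4, Gabbr1 and Gria2. DESeq2 called 4 of the 31 without the block (Grik5, Gabbr2, Gabrg1 and Gabra3, beside 7.16% of all genes) and 8 with it, all but Grin2b (beside 17.1%). The groups did not overlap for 5 of the 31 genes, 4 higher (Grik5, Gabrg1, Gabra3 and Gabbr2) and 1 lower (Gabrr2), beside 23.5% of all genes tested. The median log2 change was 0.16 over the 31 genes and 0.005 over all genes tested.

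The largest of these differences were in genes that NPC expressed weakly. Gabbr2 (chromosome 4, 46662305 to 46991873) had 67, 189 and 66 counts in libraries labelled knockdown and 35, 47 and 28 counts in controls, higher in 3 of 3 pairs. The log2 difference was 1.48 without the block (SE 0.44, edgeR adjusted p = 0.143) and 1.41 with it (SE 0.22, edgeR adjusted p = 0.000495). Gabra3 (chromosome X, 72432681 to 72656848), an alpha subunit prominent in the immature cortex, had 73, 54 and 38 counts in libraries labelled knockdown and 31, 17 and 20 counts in controls, again higher in 3 of 3 pairs. Its log2 difference was 1.28 without the block (SE 0.36, edgeR adjusted p = 0.130) and 1.27 with it (SE 0.27, edgeR adjusted p = 0.00368). Without replicate 2 labelled knockdown, which held 189 of its counts, the Gabbr2 difference was 0.90 in the fit without the block (edgeR adjusted p = 0.343). Both genes stayed past the threshold with the block when each pair was left out, the highest edgeR adjusted p being 0.0195 for Gabbr2 and 0.0328 for Gabra3.

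Among the abundant genes the differences were smaller. Gria4 (chromosome 9, 4417896 to 4796234) measured 54.1, 102 and 76.9 CPM in libraries labelled knockdown and 76.9, 127 and 105 CPM in controls, lower in 3 of 3 pairs though the groups overlap. Its log2 difference was -0.41 without the block (SE 0.25, edgeR adjusted p = 0.424) and -0.43 with it (SE 0.06, edgeR adjusted p = 0.00011). Gabrg1, abundant among the GABA-A genes of NPC, measured 81.8, 89.9 and 86.0 CPM in libraries labelled knockdown and 67.1, 76.9 and 69.3 CPM in controls. It was higher by 0.27 without the block (SE 0.07, edgeR adjusted p = 0.120) and with it (SE 0.05, edgeR adjusted p = 0.00241), and without one of the pairs the blocked adjusted p was 0.0526. Grik5 was higher by 0.24 in both fits (SE 0.06 and 0.05), with edgeR adjusted p of 0.0959 without the block and 0.00396 with it, and its libraries labelled knockdown, at 101 to 105 CPM, did not overlap the controls at 84.6 to 90.5 CPM.

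Gabbr1, Gria2 and Grin2b were the least stable of the 9 calls. Gabbr1 was lower in libraries labelled knockdown in 3 of 3 pairs, by -0.22 with the block (SE 0.05, edgeR adjusted p = 0.00599) and by -0.21 without it (adjusted p = 0.711). Gria2 was lower in 2 of 3 pairs, by -0.19 with the block (SE 0.06, edgeR adjusted p = 0.0437) and by -0.17 without it (adjusted p = 0.612). Grin2b measured 9.74, 17.2 and 17.1 CPM in libraries labelled knockdown and 9.42, 11.2 and 13.8 CPM in controls, higher by 0.33 with the block (SE 0.11, edgeR adjusted p = 0.0478) and by 0.35 without it (adjusted p = 0.501). Each of these 3 passed in only 1 of the 3 blocked fits that left out a pair. Some marker sums moved between the same groups. Astrocyte markers summed to 1230 to 1538 CPM in libraries labelled knockdown and 1039 to 1174 CPM in controls (5 of 7 fitted higher, 0 called), and oligodendrocyte lineage markers to 2963 to 3014 CPM with the knockdown label and 2819 to 2861 CPM in controls (7 of 8 fitted higher, 0 called). The neuronal sums given above overlapped, with 7 of 12 fitted higher and 1 called without the block. No marker of these 3 lists was at 0. The sums of 3 further lists were lower in every library labelled knockdown than in every control: cortical excitatory neuron markers at 19.5 to 21.2 CPM with the knockdown label and 23.3 to 25.7 CPM in controls, striatal projection neuron markers at 71.6 to 81.6 CPM with the label and 87.1 to 95.9 CPM in controls, and vessel markers at 10.5 to 11.9 CPM with the label and 15.9 to 21.05 CPM in controls. Among the markers tested without the block, 3 of 4 excitatory and 4 of 6 striatal markers were fitted lower, with 0 called. Of 4 vessel markers tested, 1 was fitted lower and 3 higher, with 1 called, so most went against the sum. The excitatory markers Fezf2 and Slc17a6, the striatal markers Isl1 and Tac1, and the vessel marker Cldn5 were at 0 in the libraries labelled knockdown. In control NPC, Tac1 was at 0 as well, and Slc17a6 measured 0, 0 and 0.034 CPM. Fezf2, Isl1 and Cldn5 were not at 0 in every control library. The part of these lists in the subunit values was not tested.

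**Figure D5:**
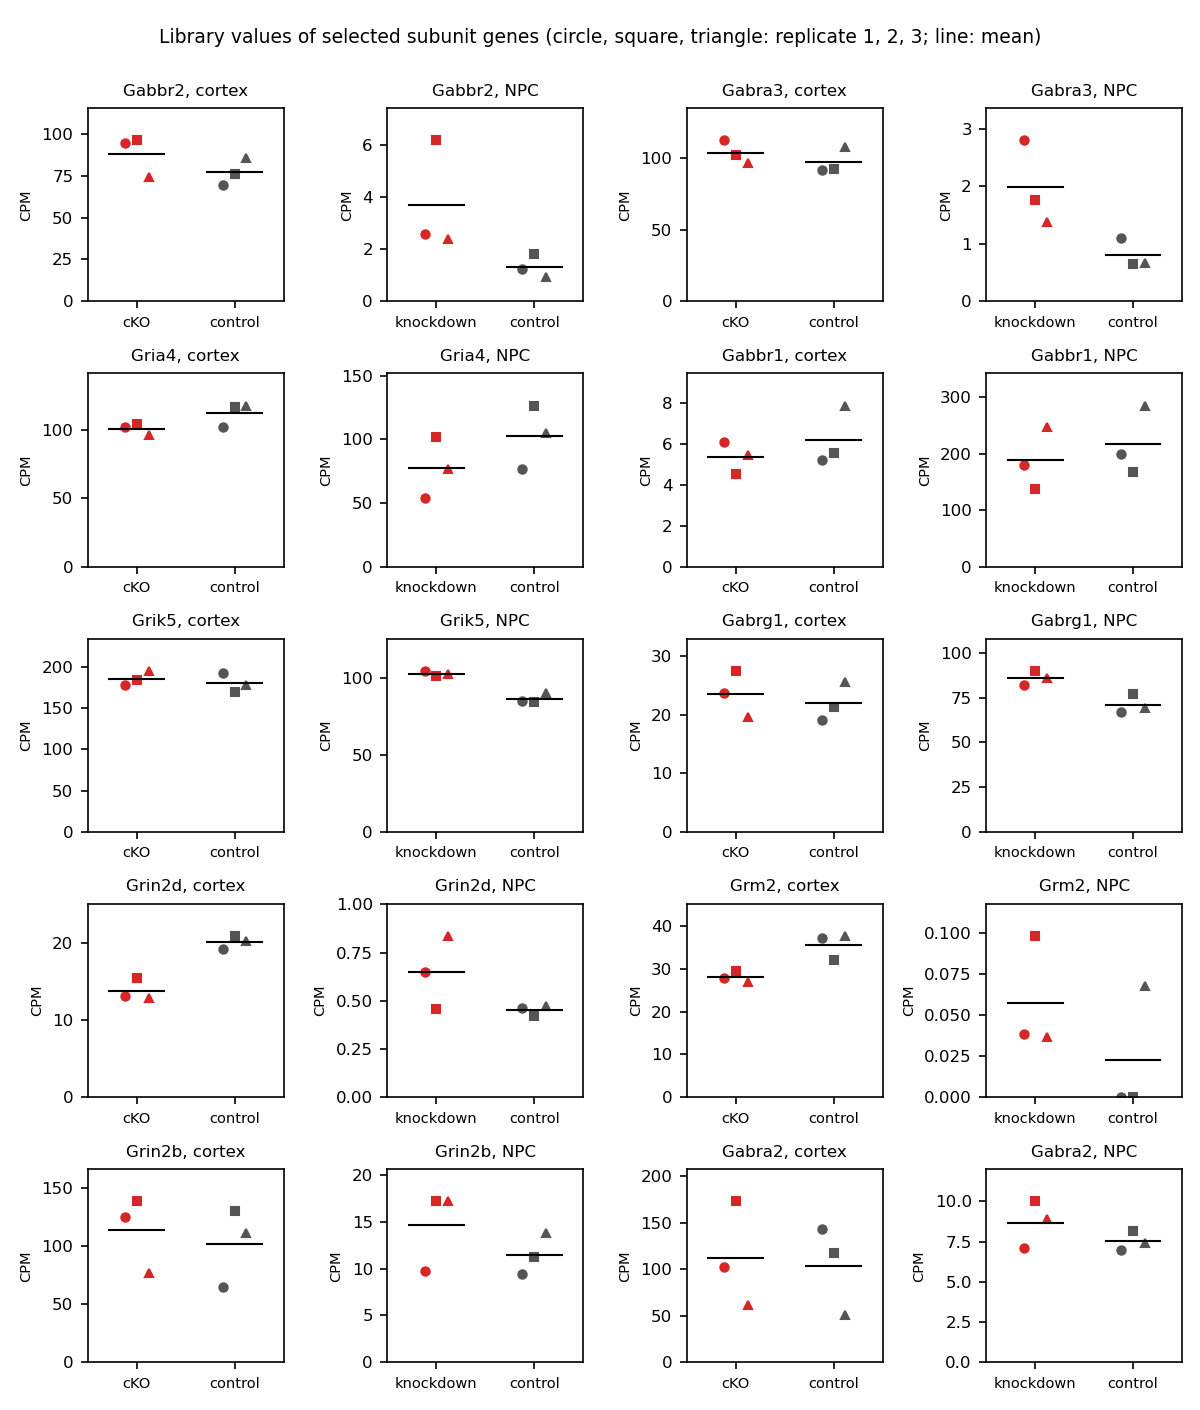
CPM in each library for 10 subunit genes, in cortex (cKO left of control) and in NPC (knockdown left of control), with each panel's axis starting at 0; markers give the replicate number and lines the mean of 3. In NPC, Gabbr2 and Gabra3 lie higher in every library labelled knockdown than in every control, and Gria4 and Gabbr1 lie lower within each replicate number.

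Whether the cKO and knockdown labels went with different changes was tested as the cortex difference minus the NPC difference, over 12 libraries. Of 16569 genes tested, 242 passed (1.46%), and 0 of the 37 subunit genes did; 4 had an unadjusted p under 0.05, beside 14.2% of all genes, and DESeq2 called 2, Gabra3 and Gabbr2, beside 4.65%. The smallest edgeR adjusted p were those of Gabra3 (-1.21, SE 0.31, adjusted p = 0.0784), Grin2d (-1.07, SE 0.29, adjusted p = 0.0879) and Gabbr2 (-1.34, SE 0.43, adjusted p = 0.166). With the replicate block in NPC alone, a fit added after the data were seen, 836 genes passed (5.05%) and these 3 subunit genes among them. With the block in both systems, Gabra3 and Gabbr2 passed and Grin2d did not (edgeR adjusted p = 0.0624). In cortex, Gabra3 differed by 0.07 and Gabbr2 by 0.17 between the labelled groups (95% intervals -0.12 to 0.26 and -0.07 to 0.42).

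Genes that work with these receptors were followed through 5 lists. In cortex labelled cKO against control cortex, 0 of the tested genes of any list passed in edgeR or DESeq2: 19 auxiliary subunits of glutamate receptors, 20 glutamate receptor scaffold genes, 18 GABA receptor scaffold and auxiliary genes, 24 genes of transmitter transport and synthesis, and 7 related receptors. In NPC, 1 of 17 auxiliary genes rose without the block, Neto2, which encodes a partner of kainate receptors. It measured 262 ± 27.5 CPM in libraries labelled knockdown and 174 ± 3.75 CPM in controls (SD, n = 3 each), a log2 change of 0.59 (SE 0.08, edgeR adjusted p = 0.0208). Of 20 transport and synthesis genes 1 rose and 3 fell, beside 0.351% and 1.54% of all genes. The gene that rose was Slc17a8, a vesicular glutamate transporter, at 6.50 ± 1.10 CPM in libraries labelled knockdown and 2.29 ± 0.448 CPM in controls (log2 change 1.498, SE 0.22, edgeR adjusted p = 0.0208). Slc12a2, the chloride importer known to make GABA depolarizing in immature neurons, fell to 73.1 ± 14.4 CPM in libraries labelled knockdown, against 141 ± 12.1 CPM in controls (log2 change -0.96, SE 0.14, edgeR adjusted p = 0.0221). Slc1a4, a neutral amino acid transporter, fell to 164 ± 11.7 CPM in libraries labelled knockdown, against 228 ± 9.22 CPM in controls (log2 change -0.48, SE 0.07, edgeR adjusted p = 0.0269), and the third was Glul, glutamine synthetase. Among 19 scaffold, 16 GABA receptor scaffold and 4 related receptor genes tested in NPC, 0 passed without the block.

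With the block, more of these genes passed in NPC, beside 11.9% higher and 12.8% lower among all genes. The counts were 4 higher and 3 lower of 17 auxiliary genes, 1 and 0 of 19 glutamate receptor scaffold genes, 4 and 3 of 16 GABA receptor scaffold genes, 2 and 6 of 20 transport and synthesis genes, and 0 and 3 of 4 related receptors. Among them Cacng8, an AMPA receptor auxiliary subunit, rose (log2 change 0.44, SE 0.06, edgeR adjusted p = 0.000147) and Cacng7 fell (-0.31, SE 0.06, edgeR adjusted p = 0.0021). Gphn, the inhibitory synapse scaffold gephyrin, rose by 0.23 (SE 0.05, edgeR adjusted p = 0.00569), and Glrb, the beta subunit of glycine receptors, fell by 0.69 (SE 0.08, edgeR adjusted p = 4.67e-05). In the test of the difference between cortex and NPC changes, Neto2 (-0.57), Slc17a8 (-1.85), Slc12a2 (0.96), Glul (0.46) and Glrb (0.85) passed in edgeR, with adjusted p between 0.00933 and 0.0446. List medians in NPC lay between -0.24 for the related receptors and 0.03 for the auxiliary genes, beside 0.005 over all genes tested.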

How the data were processed

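The authors deposited 1 table of raw counts per gene for 12 libraries; per the submitters' processing notes, reads were aligned with HISAT2 to mm10, and no source used here names the counting program, annotation or strand setting. Gene coordinates, merged exon lengths and overlaps came from GENCODE mouse release 21, which held 34076 of the 34102 gene identifiers. CPM used the total count of each library, and RPKM divided it by merged exon length. Groups were compared with edgeR 4.0.16 (quasi-likelihood test, TMM scaling, filterByExpr, Benjamini-Hochberg adjustment over all genes tested, threshold 0.05), in separate fits for cortex, NPC and the controls and 1 fit of 12 libraries for the difference of changes. DESeq2 1.42.0 was an alternative. The edgeR steps were run on simulated counts drawn with the spread that edgeR itself had fitted. Such a run cannot show whether that spread describes these libraries. Deviations from group means correlated between same-numbered NPC libraries (r = 0.48, 0.50 and 0.44) and not in cortex (0.02, -0.16 and -0.02), so the replicate number, which the labels do not explain, was treated as a block in NPC beside the main test. Libraries of a group differed by more than counting noise. The exact counting intervals on ratios of summed counts, and the floor used for Gabrd, cover counting error only. Intervals on fitted differences come from the edgeR fits and include the spread between libraries. Genes described in full were those called in a test, the highest per length in each class and system, and the 5 largest differences in each direction between controls; from each gene list at most the 3 with the smallest adjusted p were named. Some subunit genes count in the totals and are not reported here by name. The subunit genes and lists were chosen with earlier results of these data known.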

Additional observations from a re-analysis of the deposited data

Results flagged for a closer look

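With the replicate block in NPC alone, a fit added after the data were seen, 3 subunit genes changed differently in cortex and in NPC by edgeR's test of the cortex difference (cKO minus control) minus the NPC difference (knockdown minus control). They were 8.11% of the 37 subunit genes tested, beside 5.05% of the 16569 genes tested. Whether these shares differ was not tested. Gabra3 gave -1.21 on the log2 scale (SE 0.20, edgeR adjusted p = 0.005), Gabbr2 gave -1.27 (SE 0.23, edgeR adjusted p = 0.00904) and Grin2d gave -1.08 (SE 0.27, edgeR adjusted p = 0.041). Without the block the edgeR adjusted p were 0.0784, 0.166 and 0.0879, while DESeq2 without the block gave 0.00222, 0.031 and 0.0545. With the replicate number as a block in both systems, edgeR gave 0.0143 for Gabra3, 0.0224 for Gabbr2 and 0.0624 for Grin2d, so Grin2d passed only with the block in NPC alone among these 4 fits. Without replicate 2 labelled knockdown, the Gabbr2 value was -0.74 in the fit without the block (edgeR adjusted p = 0.296). For Grin2d the NPC side rests on 17, 14 and 23 counts in libraries labelled knockdown and 13, 11 and 14 counts in controls.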

How the results depend on the processing

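In cortex (cKO against control), 27 genes passed; the count was 156 with no filter on low counts, 332 with DESeq2, 1 with the replicate block, 49 in one fit of all 12 libraries and 12 with sex as a covariate, and 0 to 28 when each library was left out (0 without replicate 1 and 1 without replicate 3 labelled cKO). Subunit genes called were 1 with no filter and 2 with DESeq2, and 0 without any one library. The cortex replicate numbers only share a number. In NPC (knockdown against control), 270 genes passed; the count was 1021 with DESeq2, 654 in one fit, 3522 with the replicate block, and with the block 2437 by DESeq2, 3489 with RLE size factors, 3837 with no filter, and 4376, 2170 and 1636 without pair 1, 2 and 3. The subunit genes called in these settings were 4, 2, 9, 8, 9, 10, 10, 6 and 5 in that order. Leaving out each NPC library gave 47 to 304 genes and 0 subunit genes. For the difference between cortex and NPC, 242 genes passed; the count was 770 with DESeq2, 604 with the replicate block, 836 with the block in NPC alone and 98 to 275 without each library, with 1 subunit gene called with no filter, 2 with DESeq2, 2 with the block, 3 with the block in NPC alone and 0 to 1 without each library. For control cortex against control NPC, 12365 of 15676 genes passed (78.9%), and 12003 to 12324 without each library. Of the 28 subunit genes that passed the filter in both groups, 27 were called. Subunit genes admitted through 1 group alone had to differ and are left out of this count. The shared numbers of the 2 control groups gave 11940 genes with the replicate block, and Grin2c then missed the threshold (edgeR adjusted p = 0.0561).

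Genes counted as expressed in NPC were 16 at 5 CPM and 13 at 1 RPKM, in place of 25, and in both systems 15 and 12, in place of 24; leaving out each library kept 35, 25 and 24. Changes of sign: Gabbr1 in NPC was 0.039 without control replicate 3 (lowest -0.46, without knockdown replicate 3). For the difference between systems, Gabbr1 was 0.02, 0.14, 0.23, 0.08 and 0.17 without NPC control replicate 1, NPC control replicate 2, knockdown replicate 3, cKO replicate 2 and cortex control replicate 3 (lowest -0.29). Gria2 was -0.02, -0.080 and -0.04 without NPC control replicate 1, knockdown replicate 2 and cortex control replicate 1, and Grin2b was 0.0082 without cKO replicate 3 (lowest -0.46). The cause was not tested. Depth limits the NPC values of Gabra3, Gabbr2, Grin2d, Grm2 and Grm7, which rest on few counts.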
